A study of Saccharomyces cerevisiae with 2 samples.

Results

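Vid22 occupancy was examined at the 7 genes that encode the Paf1 complex (PAF1, CTR9, CDC73, LEO1 and RTF1) and the Bur kinase (SGV1 and BUR2), out of 6002 nuclear protein-coding genes of the sacCer3 RefSeq annotation. The genes were taken by symbol and were picked because PAF1 and BUR2 carry some of the strongest peaks of the list, so the peak values at these genes are a description and no test was made on them. A peak was assigned to a gene when it shared at least 1 base with the gene or with the 1000 bp upstream of its start.

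The peaks come from chromatin immunoprecipitation (ChIP-seq) in budding yeast, with an anti-MYC antibody and cells whose Vid22 is fused to 13Myc, and the peak calling was set against wild type (no tag) cells. The strain list of the study gives the tagged strain as BY4741 VID22-13MYC:HIS3MX6, and both groups were cultures in YEP medium, fixed with 1% formaldehyde for 10 min, and the labels name no drug or deletion. DNA of 2 ChIP experiments was pooled for each library, so each condition has 1 library, there are no replicates, and the variation between cultures is unknown. The labels of the control name no antibody, while by the methods the untagged cells went through the whole procedure, and the peak names in the deposited list set one immunoprecipitate against another. The control profile itself was not used here.

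The Paf1 complex travels with elongating RNA polymerase II and is needed in yeast for the ubiquitination of histone H2B and the histone methylation that depends on it. The Bur kinase is a cyclin-dependent kinase, Bur1 (encoded by SGV1), with its cyclin Bur2, and it phosphorylates the polymerase tail and the elongation factor Spt5, which helps to recruit the Paf1 complex to genes. Vid22 is a nuclear protein with a predicted BED-type zinc finger and has been described in a complex with its paralog Env11 and the DNA-binding protein Tbf1, whose binding sites in yeast hold TAGGG.

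Of the 7 genes, PAF1 and BUR2 had a Vid22 peak and the other 5 had none. The list held 811 peaks, of which 445 had a -log10 q of at least 9, and with these 445 peaks 13.8% of all nuclear protein-coding genes had one by the same rule. Both peaks were of the strong kind. A summit with a fold enrichment above 3 in the 1000 bp upstream was found at 2 of the 7 genes, against 2.78% of all genes. These counts were the reason for choosing the genes and nothing is read from them. No member had a weaker peak either, since the 366 deposited peaks below that q left all 5 other windows empty. With all 811 peaks, 1239 of the 6002 genes had one by the same rule.

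**Figure D1:**
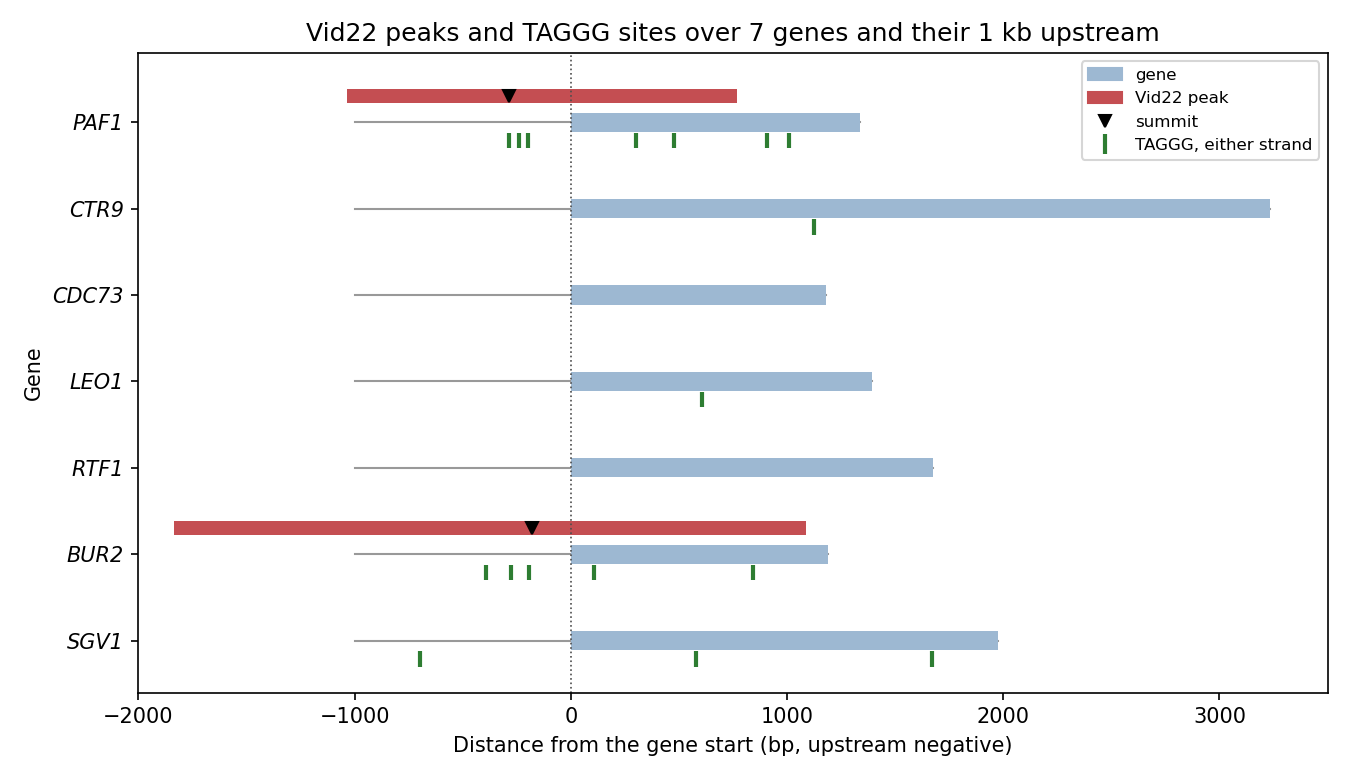
Map of the 7 genes aligned at the gene start, with the distance in bp on the x axis (upstream negative) and 1 row per gene; grey lines mark the 1000 bp upstream, blue bars the gene, red bars the Vid22 peak, triangles its summit and green ticks the TAGGG sites of the gene and its 1000 bp upstream. Red bars appear at PAF1 and BUR2 alone, with the summit 286 bp and 178 bp upstream of the start. Each has 3 TAGGG sites upstream, 2 to 86 bp from the summit at PAF1 and 10 to 208 bp from the listed summit at BUR2.

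The sequences at the summits of the PAF1 and BUR2 peaks are shown because they hold the TAGGG sites that the other 5 genes lack close to their starts. Each run covers 300 bases on the forward strand of sacCer3, which is the coding strand of both genes, from 150 bp before the summit to 149 bp after it. Capitals mark TAGGG, or CCCTA where the site is read on the other strand.
PAF1, chrII:760821-761120: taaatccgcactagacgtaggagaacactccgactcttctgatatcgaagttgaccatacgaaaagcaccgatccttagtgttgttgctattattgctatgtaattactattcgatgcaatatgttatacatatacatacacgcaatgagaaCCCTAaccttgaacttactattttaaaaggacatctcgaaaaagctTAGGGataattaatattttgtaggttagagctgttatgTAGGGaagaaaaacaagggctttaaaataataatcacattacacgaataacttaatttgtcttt
BUR2, chrXII:589026-589325: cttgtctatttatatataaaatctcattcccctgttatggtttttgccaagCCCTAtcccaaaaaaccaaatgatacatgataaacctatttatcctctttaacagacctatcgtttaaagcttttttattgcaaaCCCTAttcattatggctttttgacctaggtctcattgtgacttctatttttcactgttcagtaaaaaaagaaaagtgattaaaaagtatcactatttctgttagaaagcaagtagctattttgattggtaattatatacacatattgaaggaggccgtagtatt
The PAF1 stretch holds 3 TAGGG sites and the BUR2 stretch holds 2. Both are poor in G and C, with a GC content of 33.7% at PAF1 and 31.0% at BUR2. Promoters of the other members were also poor in both. Between the gene and its upstream neighbour the content was 29.4% at PAF1, 29.0% at BUR2 and 31.4% to 34.6% at the other 5 genes.

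PAF1 (YBR279W) encodes a core subunit of the complex and lies on chromosome II from 761257 to 762594, on the forward strand. Its peak ran from 760220 to 762026, a length of 1807 bp, with the summit at 760971. The summit lay in the 357 bp between the end of DPB3 and the start of PAF1, 286 bp upstream of the start and 72 bp past the end of DPB3. The peak covered the first 770 bp of PAF1 (57.5% of the gene) and all 606 bp of DPB3, which encodes a small subunit of DNA polymerase epsilon and is transcribed in the same direction. The start of DPB3 is 677 bp from the summit, so PAF1 has the nearest start. The summit had a fold enrichment of 6.06 over the untagged control, with a -log10 q of 244.5. By fold it ranked 32nd of 811, by q 34th and by length 81st.

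BUR2 (YLR226W) encodes the cyclin of the Bur kinase and lies on chromosome XII from 589354 to 590541, on the forward strand. Its peak ran from 587517 to 590442, a length of 2926 bp, with the summit at 589176. That position is 178 bp upstream of BUR2, in the 435 bp between BUR2 and YLR225C, an uncharacterized gene transcribed the other way. The start of YLR225C is 258 bp from the summit, so the peak lies between divergent starts and cannot be given to BUR2 alone. It covered 1089 bp of BUR2 (91.7% of the gene), all 1224 bp of YLR225C and the last 57 bp of UCC1, which encodes an F-box protein. The fold was 6.98 with a -log10 q of 284.0. Peaks with folds of 6.97 and 6.95 had the same q, so q does not separate them from BUR2. The fold of 6.98 was the highest of the list, held by 5 peaks, and the length ranked 56th.

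The read pileup behind these values can be solved, because MACS2 computes both the fold and the p-value at a summit from the pileup and the local control level. With the Vid22 reads scaled by 0.961 to the depth of the control, whole reads gave back the deposited -log10 p within 0.01 for 810 of 811 peaks. The pileup was 632 reads at the BUR2 summit and 604 at the PAF1 summit. No counting interval is given, since removal of duplicates caps the pileup close to these values. The median of the 445 peaks was 307 reads. The local control level used in the fold, in reads, was 86.1 at BUR2, as at the other peaks that share its fold, and 95 at PAF1. The value 86.1 recurred at peaks of other folds, such as 1 of fold 4.14 on chromosome VII. It is the value taken as the control background, so it is not particular to BUR2, and the control reads there may have been fewer.

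The BUR2 pileup stood at the limit that the processing sets. After removal of duplicates each position keeps at most 1 read per strand, and with reads extended to 316 bp, the length of the shortest peak, at most 632 can cover a base. The pileup reached exactly 632 in 49 of the 811 peaks, BUR2 among them, and was never higher, so a fold above that of BUR2 could not have been recorded at its control level. The PAF1 pileup was at 95.6% of this limit, and 68 peaks had a higher one. The BUR2 fold was 1.15 times that of PAF1, made up of a pileup 1.05 times as high and a control level 1.10 times as high at PAF1. Summits this close to the limit cannot be ranked by pileup, and the position of the BUR2 summit within a flat top is not given by the list.

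**Figure D2:**
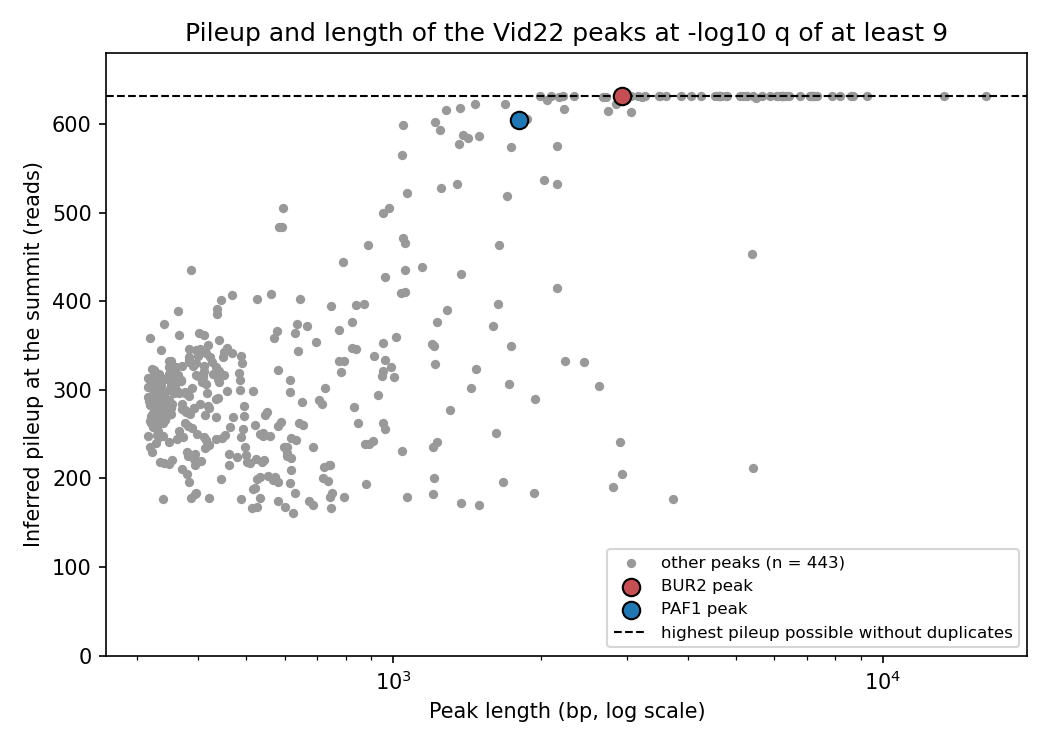
Inferred pileup at the summit in reads (y axis) against peak length in bp (x axis, log scale) for the 445 peaks at a -log10 q of at least 9; each point is 1 peak of the single Vid22 library, and the dashed line is the limit of 632 reads. The BUR2 peak (632 reads, 2926 bp) lies on the line and the PAF1 peak (604 reads, 1807 bp) just below it.

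The strong peaks varied widely in length. Among the 90 peaks with a fold above 3 the length ran from 636 to 16209 bp with a median of 3244 bp, and both members were below it. Of these 90 peaks, 51 were longer than the BUR2 peak and 67 were longer than the PAF1 peak. Within the 49 peaks at the limit, the length ran from 2098 to 16209 bp (median 5441 bp) and only 2 were shorter than the BUR2 peak.

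CTR9, CDC73, LEO1, RTF1 and SGV1 had no peak over the gene or the 1000 bp upstream. CDC73 (YLR418C, chromosome XII, 956914 to 958095) encodes a subunit that contacts the polymerase tail. The peak closest to its window was 3764 bp away, with a fold of 1.86, over the tRNA gene YNCL0049C. SGV1 (YPR161C, chromosome XVI, 864449 to 866422), the partner of BUR2, had its nearest peak 3814 bp away, with a fold of 1.97, also over a tRNA gene (YNCP0023W).

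For RTF1 (YGL244W, chromosome VII, 41498 to 43174), whose product stimulates the ubiquitination of histone H2B, the distance was 12513 bp and the fold 2.02. LEO1 (YOR123C, chromosome XV, 553176 to 554570), which pairs with Paf1 in the complex, lay 16284 bp from a peak with a fold of 1.79 over the tRNA gene YNCO0019W. CTR9 (YOL145C, chromosome XV, 49555 to 52788), the largest subunit, was the farthest from any peak. Its closest entry of the list was 26695 bp away with a fold of 1.44 and a -log10 q of 6.91, and the closest at a -log10 q of at least 9 was 27835 bp away with a fold of 1.95. None of these peaks had a fold above 3.

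Reads could be placed throughout the windows, with or without a peak. At 100% of the positions in each of the 7 windows the next 50 bases are found nowhere else in the genome. Among the 445 peaks at a -log10 q of at least 9, those with a local control level no higher than at PAF1 started at 161 reads and a fold of 1.79 (65 peaks). Deposited peaks below that q went lower, as in the gene BRE2, with 147 reads and a fold of 1.63 at a control level of 86.1. Over all 811 deposited peaks, at any control level, the lowest pileup was 123 reads and the lowest fold 1.16. Neither the pileup nor the control level at the 5 genes without a peak is listed, so the enrichment that could have gone undetected there is not known.

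The windows differed in their TAGGG sites. On either strand they held 17 sites, 7 upstream of a start and 10 in a gene body. Of the 17, 10 lay inside a peak, all at PAF1 and BUR2. As these genes were picked for their peaks, nothing is read from that share. PAF1 and BUR2 had 3 sites each in the 500 bp upstream, and 2.20% of 6000 upstream sequences of that length held 3 or more. The other 5 genes had 0 there, and 33.6% of all upstream sequences held at least 1. In the 1000 bp upstream SGV1 gained 1 site and the other counts stayed as they were. The rule that picked the genes did not use TAGGG, but its presence at strong summits was known beforehand.

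The sites upstream of a start are shown with 10 bases on each side, read so that TAGGG (capitals) runs 5′ to 3′, to set those under a peak beside the single one that is not. Each is named by the distance of its first base, on the strand of the gene, from the gene start.
PAF1, 284 bp upstream: agttcaaggtTAGGGttctcattgc
PAF1, 238 bp upstream: cgaaaaagctTAGGGataattaata
PAF1, 200 bp upstream: agctgttatgTAGGGaagaaaaaca
BUR2, 390 bp upstream: ttcaaaatttTAGGGcaacgaacag
BUR2, 277 bp upstream: ttttttgggaTAGGGcttggcaaaa
BUR2, 192 bp upstream: ccataatgaaTAGGGtttgcaataa
SGV1, 698 bp upstream: tctcagccgcTAGGGttgccttaag
All 6 sites of PAF1 and BUR2 lie in the gap to the next gene. The SGV1 site lies beyond its gap of 292 bp, inside ORC4, and no peak covers it. TT follows TAGGG there, as it does at the sites closest to both listed summits. It also follows a site in the gene body of SGV1 and a site in that of PAF1, neither of them in a peak.

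At PAF1 the site closest to the summit began 2 bp from it and is part of AACCCTAA, a longer motif that contains CCCTA, which is TAGGG read on the other strand. The listed summit base is the first base of that match. The pileup there was at 95.6% of the limit, and how exact that position is was not tested. AACCCTAA was found in 1.45% of upstream sequences of 500 bp and in 2.60% of those of 1000 bp. None of the other 6 windows, which also take in the gene, held it. The next sites were 48 and 86 bp from the summit, and the 3 sites are spaced by 46 and 38 bp. At BUR2 the distances to the listed summit, whose place within the flat top is not known, were 10, 95 and 208 bp. The spacings there were 113 and 85 bp, and all 5 sites of the BUR2 window are read on the strand opposite to the gene. At PAF1, 1 of the 3 upstream sites is on the opposite strand.

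TAGGG sites within the genes were in a peak only where the peak upstream of the gene reached them. The gene bodies of CTR9 and LEO1 hold 1 TAGGG each and that of SGV1 holds 2, and none of these 4 sites was in a peak. PAF1 has 4 in its gene body, of which 2 fall in the part that the peak covers, and both sites in the gene body of BUR2 lie in its peak, which covers most of the gene. CDC73 and RTF1 had no TAGGG in the whole window.

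The same count over all genes places the members. Genes were grouped by the number of TAGGG sites in the 500 bp upstream, and a summit with a fold above 3 in that stretch was found at 7 of 3983 genes with 0 sites, or 0.176% (95% Wilson interval 0.0852% to 0.362%). The share was 2.03% (31 of 1528) with 1 site and 13.2% (47 of 357) with 2 sites. With 3 or more sites it was 45.5% (60 of 132, Wilson interval 37.2% to 54.0%). PAF1 and BUR2 are among these 132 genes and the 5 members without a peak are among the 3983. The genes are not independent, since neighbours share promoters and the 60 genes rest on 38 peaks, and the members are included in the counts, so the trend is a description.

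**Figure D3:**
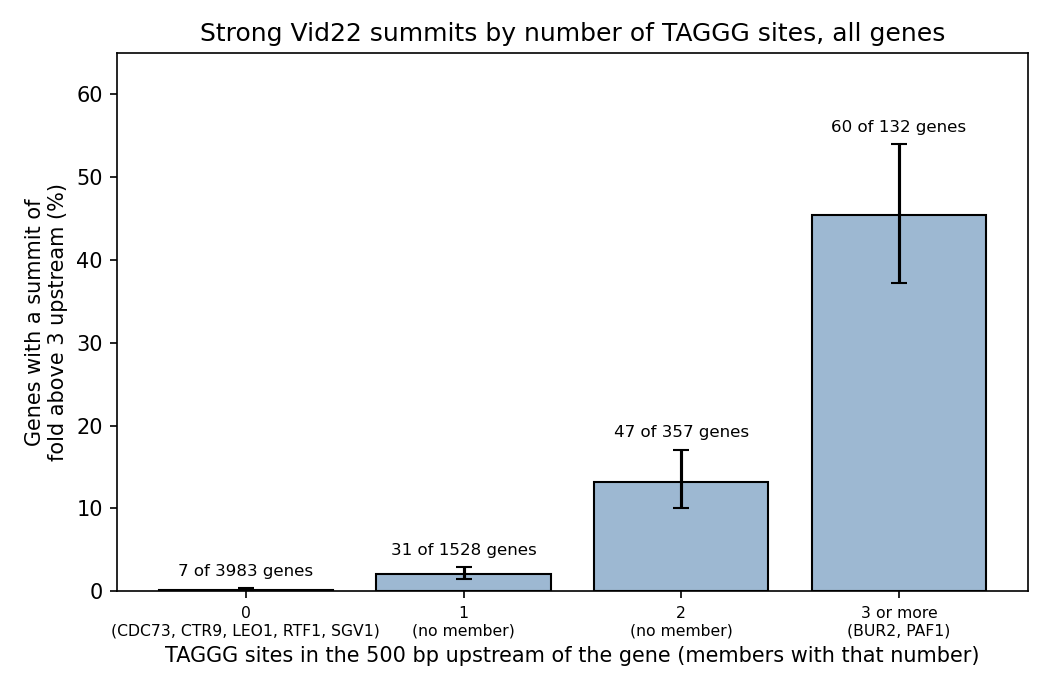
Share of nuclear protein-coding genes (%, y axis) with a Vid22 summit of fold above 3 in the 500 bp upstream, by number of TAGGG sites there (x axis, members named below); bars are shares, error bars 95% Wilson intervals for counting error only. The share is 0.176% without a site, where 5 members stand, and 45.5% with 3 or more, where PAF1 and BUR2 stand.

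Other sequence features were read in the same windows. The Reb1 motif TTACCCG, bound by another general regulatory factor, was present in the windows of CTR9 and RTF1 and in none of the other 5, those of PAF1 and BUR2 included. It occurred in 10.1% of upstream sequences of 500 bp and in 13.5% of those of 1000 bp. The windows also take in the gene, and no share was taken for that length. The matches are shown in capitals with 10 bases on each side because they lie upstream of genes without a peak.
CTR9, 171 bp upstream: tatttgctcgTTACCCGtaatcgaact
RTF1, 157 bp upstream: ttatcatccaTTACCCGgttttgtaat
No window held a predicted G4 element, taken as at least 4 runs of GGG on one strand with loops of 1 to 25 bases. The closest element was 11779 bp from the window of PAF1 and 11758 bp from that of BUR2. For the genes without a peak this distance was 1786 bp at CTR9, 2172 bp at SGV1, 2329 bp at CDC73, 7473 bp at LEO1 and 40374 bp at RTF1, so PAF1 and BUR2 lay within the range of the others. Measured from the edge of the peak it was 11742 bp at PAF1 and 10921 bp at BUR2. BUR2, CTR9 and CDC73 have a divergent upstream neighbour and the other 4 a tandem one. The gaps to the upstream neighbour were longest at BUR2 (435 bp) and PAF1 (357 bp) and ran from 253 bp at LEO1 to 348 bp at RTF1 in the others, with a median of 423 bp over all genes.

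The wider machinery of RNA polymerase II was taken from 4 lists with 51 genes in all, and 8 of them (15.7%) had a peak over the gene or the 1000 bp upstream, against 13.8% of all genes. By list there were 3 of 13 elongation factors (SPT5, SPT16 and RBA50), 1 of 11 kinases and phosphatases of the polymerase tail (SSN8), 1 of 15 histone modification genes (BRE2) and 3 of 12 polymerase subunits (RPB4, RPB5 and RPC10). RPB4 was the only one of the 51 with a strong summit upstream, as PAF1 and BUR2 had.

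RPB4 encodes a polymerase subunit that forms a stalk with Rpb7, and its peak on chromosome X was 2676 bp long. The fold was 5.89, the pileup 630 reads and the control level 102 reads, close to the values at PAF1. The summit lay 293 bp upstream of RPB4 but 278 bp from the start of the kinase gene YAK1, with 1 TAGGG within 100 bp. At SPT5, BRE2 and RPB5 the strongest peak had its summit 2628, 3135 and 3667 bp past the end of the gene, closest to the starts of MIN4, POM34 and TBS1.

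SPT5 encodes a target of the Bur kinase in yeast, and the called peak at the other end of its window had a fold of 1.78 with the summit 1288 bp upstream, nearest to ERV25. The remaining peaks were weak. SPT16, which encodes a subunit of the histone chaperone FACT, had 4 peaks in its gene body with folds of 1.54 to 2.09, of which 1 passed a -log10 q of 9. RBA50 had folds of 1.72 and 1.84. The SSN8 peak (1.59) covered the RNA gene NME1, and the RPC10 peak (1.60), with its summit 920 bp upstream, lay over DSE2.

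**Figure D4:**
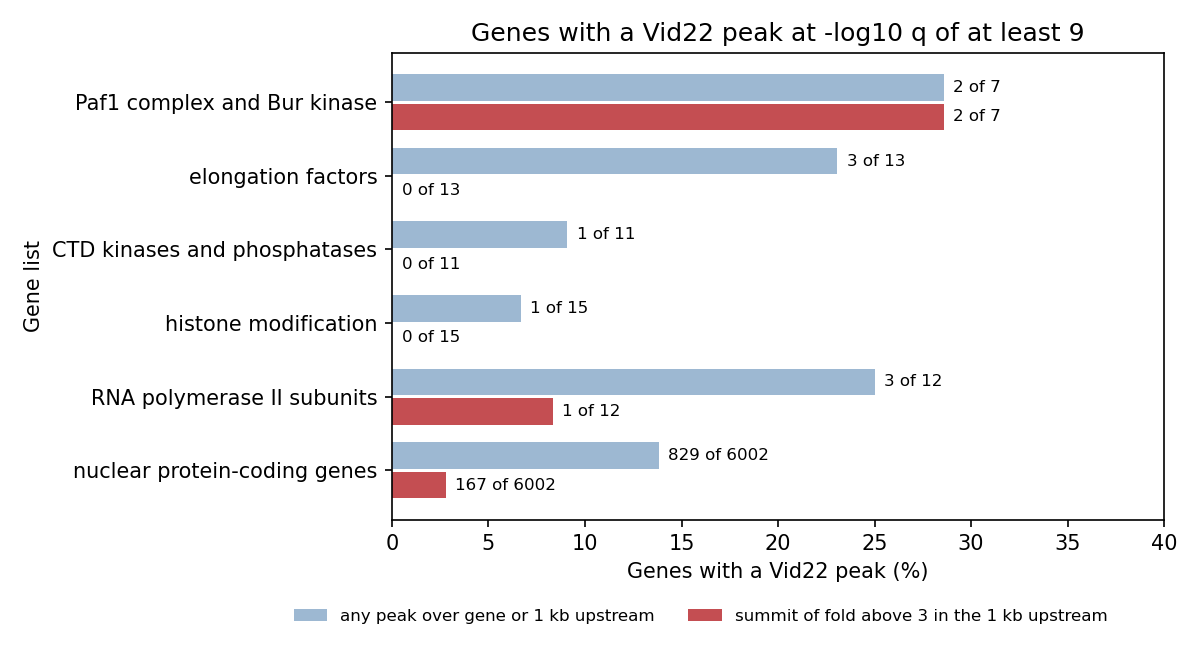
Share of genes (%, x axis) with a Vid22 peak at a -log10 q of at least 9 for the Paf1 complex and Bur kinase genes, 4 lists of the polymerase II machinery and all nuclear protein-coding genes (y axis); blue bars count any peak over the gene or 1000 bp upstream, red bars a summit of fold above 3 in the 1000 bp upstream, with the counts printed beside them. The red bar is 2 of 7 for the members, 1 of 12 for polymerase subunits, 0 in the other 3 lists and 167 of 6002 for all genes.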

How the data were processed

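The authors aligned the reads of 50 bp with bowtie to sacCer3, retained reads with 1 best alignment, dropped PCR duplicates by samtools and ran MACS2 with its defaults against the untagged control. Versions are not given in the sources used here. For each peak they deposited a score (the -log10 q-value times 10, rounded down, which held for all 811 peaks), the ratio of pileup to local control (fold enrichment) at the summit, and the -log10 p-value and -log10 q-value there.

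Peaks with a -log10 q of at least 9 were used, the threshold of the methods as written. The 445 peaks that pass it are more than the paper reports, so they are not the authors' own final set. The members and gene lists were chosen with earlier results of these data known. Genes are those of the RefSeq annotation of R64, whose sequence names match the peak list and whose gene starts are start codons in all 6002 cases. The text names the 7 members, genes in their windows or under their peaks and each listed gene with a peak.

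The scale of the Vid22 reads was the one that brought 34 distinct summit heights closest to whole reads. Depths of 3420000 reads (Vid22) and 3290000 (control) follow if the control background of 86.1 reads is spread over the nuclear genome. The solution returned all 168 pileups of simulated data that were made with the same formulas and a known scale. This checks the arithmetic only, not the search for the scale or the formulas themselves. No test between samples was possible with 1 library per condition. Alternatives covered the threshold on q, the overlap, the window, merging of peaks, the distance to TAGGG, the loops of G4 elements and the tail of the Poisson distribution. Scripts ran under Python 3.11.15 with scipy 1.17.1, pandas 2.3.3, matplotlib 3.10.9 and numpy 2.4.6.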

Additional observations from a re-analysis of the deposited data

How the results depend on the processing

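PAF1 and BUR2 were the members with a peak, 2 of 7, under all 9 alternatives for the threshold, the overlap, the window and the merging of peaks. Both were picked for their strong peaks, which stricter settings could hardly remove, so nothing is read from this. Each has 1 peak in the whole list, so the choice of the strongest peak or of the nearest one had no part in its values. The count over all genes was 829 and rose to 1239 with every deposited peak. It fell to 495 at a -log10 q of at least 20 and to 527 when 50% of the peak had to lie in the window. Elongation factors fell to 1 at a -log10 q of at least 20, and the count for kinases and phosphatases was 0 at 10 and at 20. Histone modification genes had 0 with the summit in the window, with 50% of the peak in it and with the upstream sequence alone, and polymerase subunits had 1 with 50% of the peak. Within 50 bp of the BUR2 summit there was 1 TAGGG. With loops of at most 7 bases the nearest G4 element was 79990 bp from the PAF1 peak and 144678 bp from the BUR2 peak. With the height included in the Poisson tail the pileups were 606 and 634 reads, but this returned the p-value of only 355 of 811 peaks. No paired analysis was possible because each condition has 1 library. The limits are a single library, no control profile, and a pileup that cannot pass 632 reads.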

Other observations

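The 49 peaks with a pileup of 632 reads had folds from 3.64 to 6.98, and their local control level ran from 86.1 to 166 reads. As the pileup is the same in all of them, the order of these 49 peaks by fold is the order of their control levels read from the lowest. BUR2 is 1 of the 5 peaks that share the top, and these 5 cannot be ordered among themselves. The PAF1 peak, with 604 reads, has a higher fold than the peak of 632 reads near SPT5 (4.20), where the control level was 144 reads.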
